A study of Mus musculus with 23 samples.

Results

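The 10 genes described here, Eln, Fbn1, Fbn2, Fn1, Tnc, Postn, Lum, Dcn, Sparc and Adamts6, encode components of the extracellular matrix other than collagens, or an enzyme that acts on it. Open chromatin at these genes was read from ATAC-seq, in which the Tn5 transposase cuts and tags accessible DNA. Overlapping peaks of 9 lists (1 bp or more) were joined into regions, and a region belonged to a gene when that gene was the nearest protein-coding gene within 100 kb, with a distance of 0 inside the gene body. By this rule 91 regions of 118102 were members, and no member was equally near to another gene. The gene set was selected on measured values, the calls at E12.5 set against those at E11.5: Eln was chosen by its larger number at E12.5 and Sparc by its smaller one. Values for E12.5 against E11.5 are therefore a description, with no test. The member farthest from its gene lay 87.1 kb from Postn, and the nearest region left out by the distance limit lay 123 kb from Fn1 and was called in 2 lists.

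The cells came from wild-type C57BL/6 mouse embryos at embryonic day 10.5 (E10.5), 11.5 and 12.5. They were mesenchymal cells of the maxillary prominence, the part of the embryonic face that gives rise to the upper jaw and secondary palate, after the surface ectoderm had been peeled off with Dispase II. Each stage had 3 samples and each sample 1 peak list, made from 23 library runs in all, and no treatment or mutation was part of the design. The sources used here do not say how many embryos made up a sample. The p-values below reflect the spread among these samples alone, taken mostly over all tested genes together, and part of it may be technical. In pooled tissue, a site open in fewer cells and a site less open in each cell cannot be told apart.

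Elastic fibres consist of an elastin core, the product of Eln, laid onto microfibrils built from fibrillins, the products of Fbn1 and Fbn2. Fibronectin, the product of Fn1, forms the early fibrillar matrix on which other components assemble, and tenascin C, periostin and SPARC are secreted proteins that modulate how cells attach to the matrix. Lumican and decorin are small leucine-rich proteoglycans that bind collagen fibrils, and Adamts6 encodes a secreted metalloproteinase. Mesenchyme of the face lays down such matrix before bone, cartilage and connective tissue differentiate.

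The start-site sequences of Tnc, Sparc and Fbn1 are shown because called regions cover part or all of them and the promoter table used holds them. Each runs 5′ to 3′ along the gene, ends at the last base before the annotated gene body, and comes from RefSeq on GRCm38.p6, minus strand. Capitals mark bases that lie inside a called region. The Tnc bases are chr4:64047016-64047265, the Sparc bases chr11:55420081-55420330 and the Fbn1 bases chr2:125506486-125506688.
Tnc: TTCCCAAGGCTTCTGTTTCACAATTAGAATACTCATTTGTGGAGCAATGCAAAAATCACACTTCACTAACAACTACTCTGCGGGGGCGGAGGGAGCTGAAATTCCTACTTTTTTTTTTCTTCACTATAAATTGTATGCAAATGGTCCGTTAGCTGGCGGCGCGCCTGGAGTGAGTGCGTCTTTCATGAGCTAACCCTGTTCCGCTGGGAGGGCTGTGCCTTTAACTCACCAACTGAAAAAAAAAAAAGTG
Sparc: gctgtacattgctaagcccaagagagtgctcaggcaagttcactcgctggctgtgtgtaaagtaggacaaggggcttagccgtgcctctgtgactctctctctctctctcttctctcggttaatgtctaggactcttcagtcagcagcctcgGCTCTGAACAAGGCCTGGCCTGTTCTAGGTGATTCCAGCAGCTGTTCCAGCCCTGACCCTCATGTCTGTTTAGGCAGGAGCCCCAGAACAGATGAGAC
Fbn1: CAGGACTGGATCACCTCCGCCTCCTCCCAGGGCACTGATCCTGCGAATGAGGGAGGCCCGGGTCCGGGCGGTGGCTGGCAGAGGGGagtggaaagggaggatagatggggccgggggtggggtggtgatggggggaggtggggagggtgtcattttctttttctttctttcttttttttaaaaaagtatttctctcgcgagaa
All 250 Tnc bases, 98 of 250 Sparc bases and 86 of 203 Fbn1 bases were inside a called region.

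In the Tnc window, TATAAA stood 126 bases and GGGCGG 167 bases before the start at position 64047015, both within the called region, and CANNTG was found at 3 places. The Sparc window held CANNTG, the E-box letters, 60 and 10 bases before its start and once across the start, and none of the other motifs searched. The Fbn1 window, counted from its annotated start at position 125506438, held GGGCGG 185 bases before that start and CANNTG after it, both inside a called region. Among 21020 RefSeq windows of the same 300 bases (250 before and 50 after a start), both strands searched, 12.7% held TATAAA and 38.5% held CCAAT. The share was 46.6% for GGGCGG, 7.04% for TGANTCA (the AP-1 letters), 13.5% for GGAATG (the TEAD letters) and 69% for CANNTG. The CpG count was 14 in the Fbn1 window, 10 in that Tnc window and 4 in the Sparc window, beside a median of 13 over all windows. A second Tnc window, from the start at position 64046936, held 16 CpGs. Postn had a window at each of 2 starts, with 4 and 5 CpGs, and no base of either was in a called region. One of them held TATAAA 26 bases before the start at position 54361107, and the other held CCAAT after its start, on the reverse strand. These matches describe letters only.

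Peak lists differed widely in length, from 5682 peaks in E11.5 sample 1 to 50361 in E12.5 sample 2. The E10.5 lists held 14886 to 19095 peaks, the E11.5 lists 5682 to 41457 and the E12.5 lists 19139 to 50361. Read counts are not part of these lists, so the sequencing depth behind each call is unknown. E11.5 sample 1 and E12.5 sample 1 stood apart: of 1407 regions called by exactly 8 lists, they missed 29.6% and 43.9%. Longer lists call more regions, so the calls of each gene were set against expected calls, which take account of each list's length and of how many lists called each region. Of 11 genes that mark facial mesenchyme, 3 to 7 had a region within 1 kb of a gene end in the E10.5 lists, 1 to 7 in the E11.5 lists and 5 to 6 in the E12.5 lists, the 1 being in the short E11.5 sample 1. Prrx1, Prrx2 and Alx4 had none so placed in any list. Of 11 epithelial markers 0 to 4 were so marked per list, with Krt18, Krt14, Krt5 and Grhl3 in none. Of 10 endothelial markers 0 to 3 were, with Pecam1, Tek and Emcn among 5 in none. Of 6 muscle, 9 neural and 8 blood markers, 0 to 2, 0 to 5 and 0 to 2 were, and Myf5, Pax7, Stmn2 and Ptprc were in none. The part of other cell types in the results below was not tested.

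Most of the 91 matrix-gene regions were narrow and seen once. Their median width was 200 bp, beside 197 bp over all 107078 regions assigned to a gene, and 66 of them (72.5%) were called by a single list, beside 67.8%. Another 15 were called by 2 lists, 4 by 3 to 5 lists, 6 by 6 to 8 lists and none by all 9, whereas 1.12% of assigned regions were called by all 9. The 53 regions inside a gene body made up 58.2%, beside 63.5%. A deposited −log10 q of at least 5 in some list was reached by 18 regions (19.8%), beside 21.4%.

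Recurrent regions sat at gene ends. Of the 14 member regions within 1 kb of either end of their gene, 6 were called by 6 or more lists, and of the 77 elsewhere 0 were. Over all assigned regions the shares were 25.1% near an end and 1.64% elsewhere. Regions near a gene end had a median width of 479.5 bp in the matrix genes and 420 bp over all assigned regions, against 173 and 182 bp elsewhere.

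By stage, 6 member regions (6.59%) were called only in E10.5 lists, 35 (38.5%) only in E11.5 lists and 37 (40.7%) only in E12.5 lists, where 11.1%, 23.2% and 42.4% of assigned regions were. Genes other than Eln held most of the regions called only at E11.5. Of their 72 regions, 33 (45.8%) were of this kind and 23 (31.9%) were called only at E12.5. For Eln, 14 of 19 (73.7%) were called only at E12.5 and 2 (10.5%) only at E11.5, the contrast on which Eln was chosen. In samples 1 to 3, the E10.5 lists called 8, 9 and 8 member regions, the E11.5 lists 7, 29 and 29, and the E12.5 lists 17, 32 and 14. Expected from list length were 11.2, 13.7 and 10.3, then 3.97, 17.9 and 28, then 18.5, 36.1 and 13.4. All 3 E10.5 lists were under their expected number and all 3 E11.5 lists over it, while the E12.5 lists lay on either side. Over the 9 lists, expected calls sum to the calls made, for each gene and for the 153 member calls. A surplus at 1 stage is therefore matched by a deficit elsewhere, so the stages are not separate evidence.

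**Figure D1:**
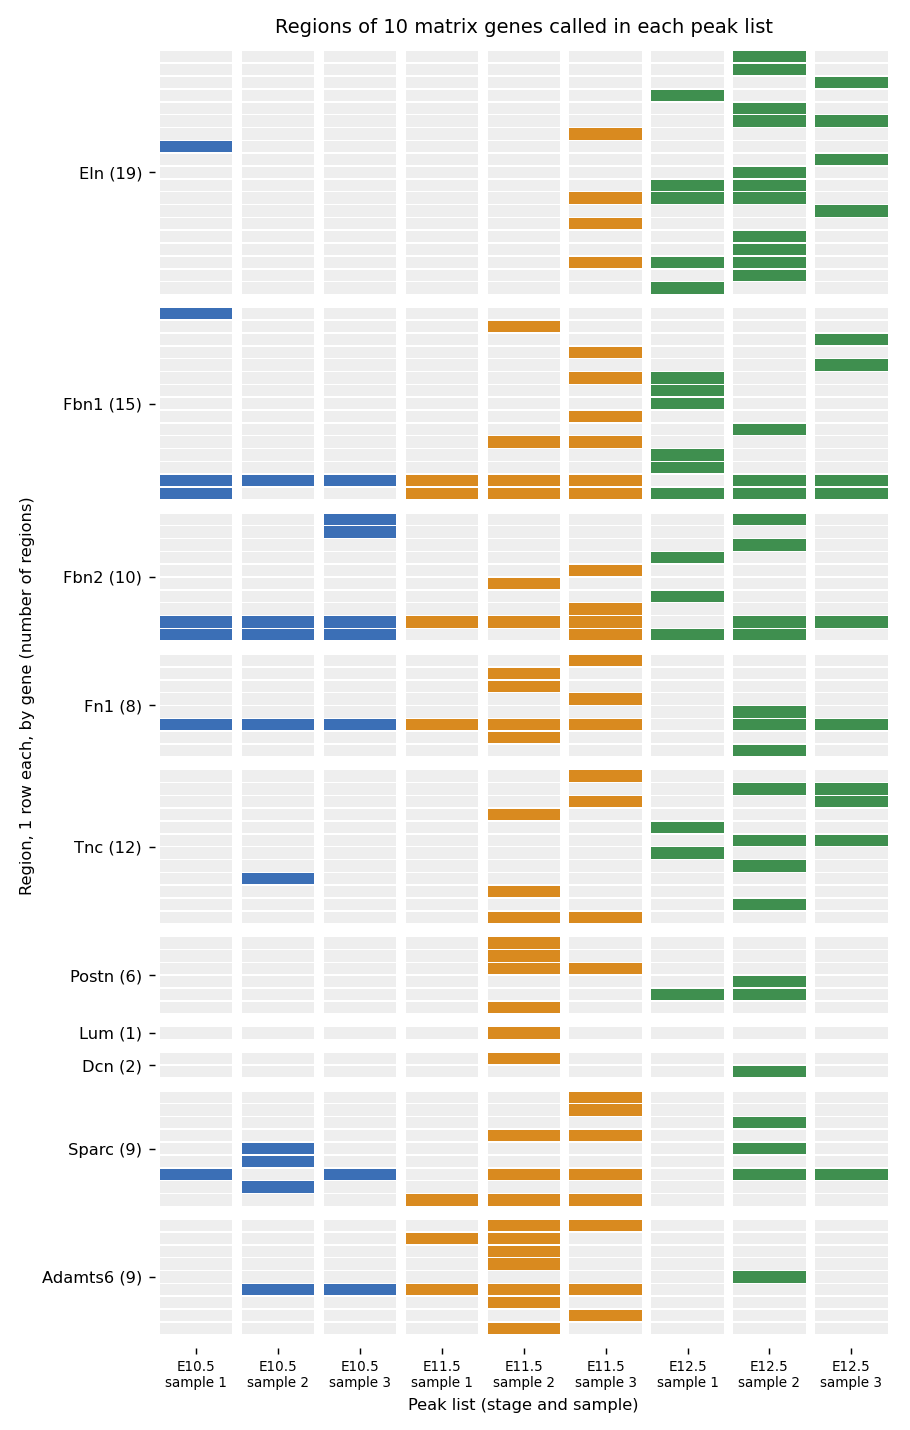
Calls of the 91 regions of the 10 matrix genes (rows, in genomic order within each gene, with the number of regions in brackets) in the 9 peak lists (columns); a coloured cell is a call and a grey cell none. Long rows of calls appear for Fbn1, Fbn2, Fn1, Sparc and Adamts6, while Eln's calls are mostly single cells in the E12.5 columns.

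A region counted as gained if it was called by every list of the later stage and by no list of the earlier one, and as lost if the reverse held. From E10.5 to E11.5, 1 of 91 member regions was gained, at Sparc, beside 0.643% of all regions, and 0 were lost, beside 0.149%. From E10.5 to E12.5, 0 were gained and 0 lost, beside 0.478% and 0.307%. Between E11.5 and E12.5, the contrast that chose the set, 0 were gained, beside 0.561%, and 2 were lost, at Sparc and Adamts6, beside 1.23%. The counts that involve E11.5 turned on its short sample 1. Without that list, 6 regions were gained from E10.5 to E11.5 (6.59% of members, beside 4.61% of all regions) and 7 were lost from E11.5 to E12.5 (7.69%, beside 5.77%). Those 7 regions were 2 of Sparc, 2 of Adamts6 and 1 each of Fbn1, Tnc and Postn. At E12.5, leaving out sample 3 gave 4 regions gained since E10.5, 3 of Eln and 1 of Postn (4.65%, beside 4.5%), and leaving out sample 1 gave 3, of which 2 were of Tnc and 1 of Eln (3.7%, beside 2.19%).

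For genes with at least 5 regions called by 1 to 8 lists, the residual of a list is its calls minus its expected calls, in units of the SD that the expectation implies. Residuals were compared between stages with limma over 7487 genes, with Benjamini-Hochberg adjustment over all of them, and 8 of the 10 matrix genes could be tested. For E11.5 against E10.5, 0 of the 8 passed an adjusted p of 0.05 in limma, beside 0.214% of genes with more calls and 0.0267% with fewer. At an unadjusted p under 0.05 there were 2, Adamts6 and Fn1, beside 9.99% of genes. The residual difference was above 0 in 7 of the 8, beside 42.2% of genes, with a median of 1.20 beside −0.17 over all genes. Among the 7, Fbn1, Fn1, Sparc and Adamts6 were over their expected calls in all 3 E11.5 lists. Postn and Tnc were over theirs in E11.5 sample 2 only. Eln, at 0.03, was under its expected calls in all 3 and changed sign under some alternatives. The expectation fitted recurrent regions poorly. A region called by 8 lists was expected in 2.69, 2.46 and 2.85 of 3 lists in the order of the stages. Over all such regions, misses were 2.91%, 1.14% and 4.05% (E10.5), 29.6%, 0.142% and 0.0711% (E11.5), and 43.9%, 2.35% and 15.8% (E12.5). A gene with such a region, as Fbn1, Fbn2 and Fn1 have, thus tends to surplus at E10.5 and E11.5 and to deficit at E12.5. The 1 Fn1 call in E11.5 sample 1 was of this kind. For E12.5 against E10.5, 0 of the 8 passed in limma, beside 0.0134% with more calls and 0% with fewer, and 1, Eln, had an unadjusted p under 0.05, beside 8.78% of genes. There the median was −0.01 beside 0.04 over all genes. Both comparisons use the same E10.5 lists, and the E11.5 and E12.5 lists also entered the choice of the gene set.

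**Figure D2:**
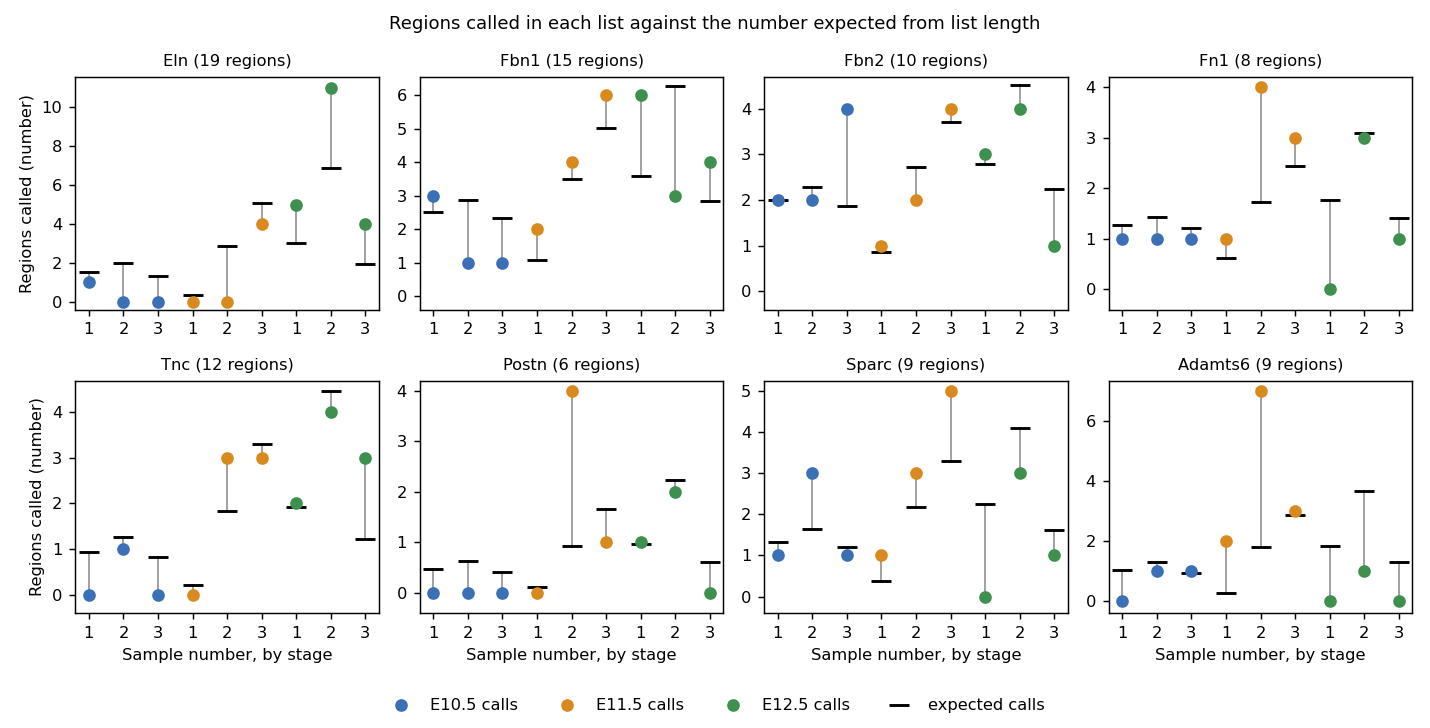
Number of regions called (circles, coloured by stage) and expected from list length (black bars) in each of the 9 lists (sample 1 to 3 of each stage) for the 8 genes with enough regions to test. Circles stand above their bars in all 3 E12.5 lists for Eln and in all 3 E11.5 lists for Fbn1, Fn1, Sparc and Adamts6.

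Eln, the elastin gene, spans 44.8 kb at chr5:134702595-134747368. Of its 19 regions 10 lay inside the gene and 9 beyond its higher-coordinate end, within the 154 kb gap before Tmem270. The E10.5 lists called 1, 0 and 0 of them, the E11.5 lists 0, 0 and 4, and the E12.5 lists 5, 11 and 4. Expected at E12.5 were 3.01, 6.87 and 1.95, so every E12.5 list was over its number, and 5 of the 6 earlier lists called at most 1 region. Mean calls were 0.333 ± 0.577 (SD, n = 3), 1.33 ± 2.31 and 6.67 ± 3.79 in the order of the stages. The residual differed by 2.67 between E12.5 and E11.5, which is given without a test. For E12.5 against E10.5, a comparison that uses the E12.5 lists that chose Eln, the difference was 2.70 ± 0.83 (SE) with an adjusted p of 0.26 in limma. For E11.5 against E10.5 it was 0.03 ± 0.83, adjusted p = 0.995 in limma.

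The calls at Eln were weak ones. None of its regions reached a −log10 q of 5, and the highest value was 4.69. That threshold bears unequally on the stages. With it set on all peaks, 2 member regions were called only at E12.5, beside 37 without it. Called only at E11.5 were 11, beside 35. Of Eln's 25 calls, 20 were in E12.5 lists. Within their own lists, 22 of its 25 calls ranked below the 50th percentile of fold enrichment, with a median percentile of 18.1, where 57 of 128 calls of the other 9 genes did, with a median of 53.6. In the longest list, E12.5 sample 2, the 11 Eln calls had a median percentile of 11.6. No Eln region was called by more than 3 lists, and 15 of 19 were called by 1.

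Both Eln regions that 3 lists called were distal. The region chr5:134784572-134784818 lay 37.2 kb beyond the higher-coordinate end and had folds of 2.47 in E11.5 sample 3, 3.56 in E12.5 sample 1 and 2.32 in E12.5 sample 2. The region chr5:134800053-134800251, at 52.7 kb, was called in the same 3 lists with folds of 2.88, 3.71 and 2.13. Folds are the authors' own enrichment at the peak over its list's background and are read within a list only. Close to the higher-coordinate end, the gene had only a pair of regions 376 and 704 bp inside it, in E12.5 samples 2 and 3. Over the 9 lists, the 3 genes whose residuals were most like Eln's among 7486 were Ano7, Gpbp1 and Mlc1. Each had 5 regions and a correlation of 0.968, a description that rests on few calls and on lists of shared length.

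Fbn1, which encodes fibrillin 1, spans 206 kb at chr2:125300594-125506485. Of its 15 regions, the E10.5 lists called 3, 1 and 1, the E11.5 lists 2, 4 and 6, and the E12.5 lists 6, 3 and 4. The stages overlapped, with means of 1.67 ± 1.15, 4 ± 2 and 4.33 ± 1.53 (SD, n = 3). The residual difference was 1.56 ± 0.86 (SE) for E11.5 against E10.5 and 1.17 ± 0.86 for E12.5 against E10.5, with adjusted p of 0.565 and 0.706 in limma.

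Fbn1 was called at its start in 8 of the 9 lists. The 1219 bp region chr2:125505243-125506461, which covers the annotated start, was called in all lists but E12.5 sample 1. Its folds in the E10.5 lists were 4.24, 2.93 and 2.72, in the E11.5 lists 4.72, 6.04 and 4.84, and in E12.5 samples 2 and 3 they were 3.01 and 2.90. As ranks within a list these were the 91.8, 76.4 and 65.1 percentiles, then 39.7, 66.8 and 87.2, then 91.0 and 55.9, so no stage stood above the others. A second region, chr2:125506603-125507064, begins 118 bp outside the gene and contains the capitals at the 5′ end of the printed Fbn1 bases. It was called in 7 lists, not in E10.5 samples 2 and 3, with a fold of 2.57 in the first E10.5 list, 3.52, 3.93 and 4.30 in the E11.5 lists, and 3.38, 2.77 and 2.84 in the E12.5 lists. Within the gene, chr2:125436285-125436710 was called in E11.5 samples 2 and 3 only, with folds of 8.26 and 4.65, the former at a −log10 q of 17.8.

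Fbn2, which encodes fibrillin 2, the fibrillin known as the more embryonic of the pair, spans 202 kb at chr18:58008623-58210572 and had 10 regions, none of them below the gene. Calls numbered 2, 2 and 4 in the E10.5 lists, 1, 2 and 4 in the E11.5 lists and 3, 4 and 1 in the E12.5 lists. Every stage covered nearly the same range. The residual difference was −0.80 ± 0.84 (SE) for E11.5 and −1.20 ± 0.84 for E12.5 against E10.5, with adjusted p of 0.812 and 0.686 in limma. The 1242 bp region chr18:58209197-58210438, at its higher-coordinate end, was called in all lists but E12.5 sample 1. Folds in the E10.5 lists were 3.15, 3.21 and 2.86, in the E11.5 lists 4.31, 4.54 and 3.78, and in E12.5 samples 2 and 3 they were 2.74 and 3.34. Beside it, chr18:58210676-58211435 was called in 6 lists, missing from E11.5 samples 1 and 2 and E12.5 sample 3. The fibrillin genes thus each carried a pair of recurrent regions at 1 end, and Eln carried none.

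**Figure D3:**
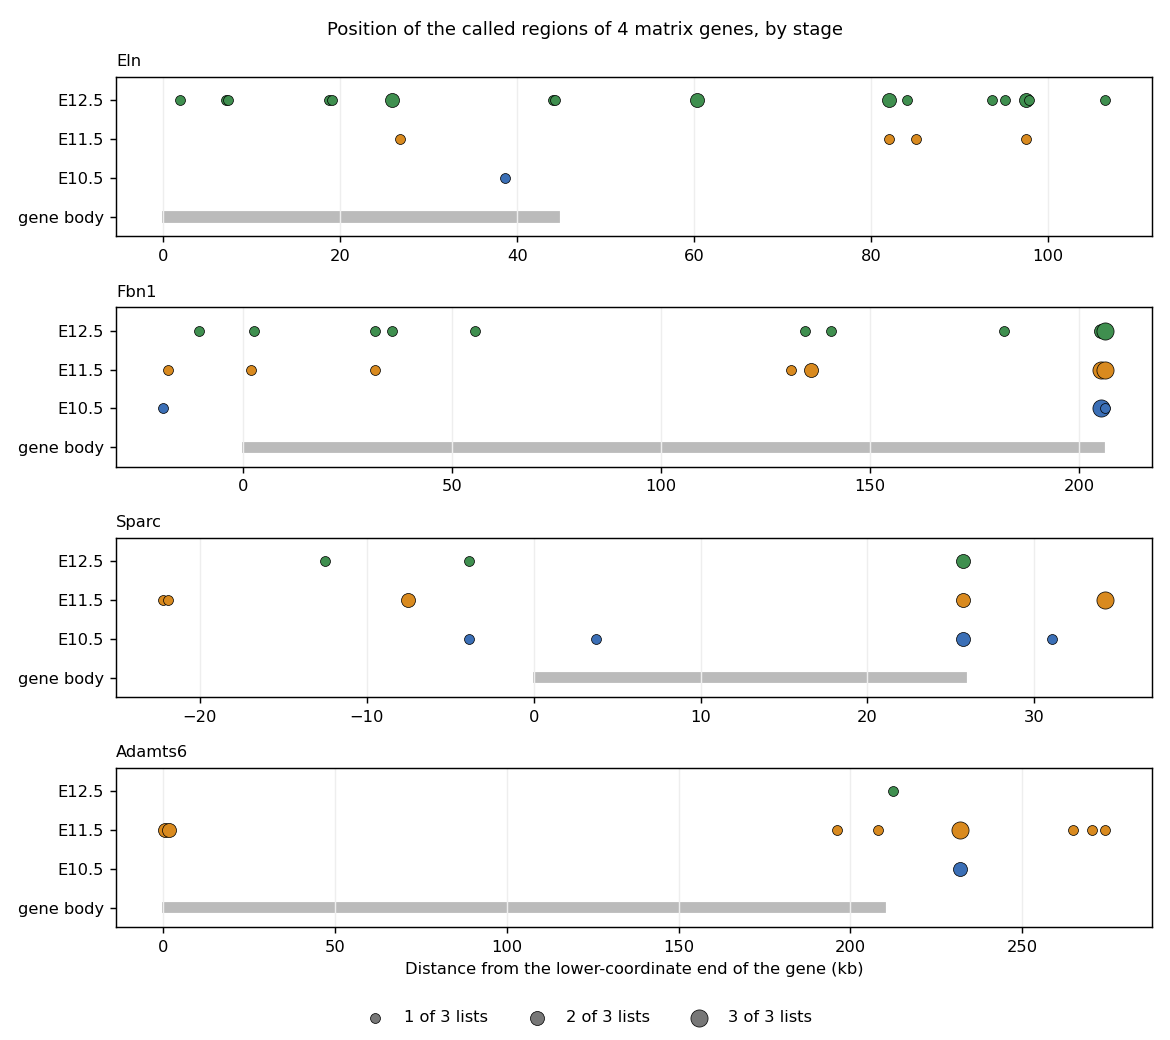
Position of the called regions of Eln, Fbn1, Sparc and Adamts6 by stage, as distance in kb from the lower-coordinate end of the gene (grey bar, the gene body); the size of a circle gives the number of the stage's 3 lists that called the region. Circles of 2 or 3 lists stack at the right-hand end of Fbn1 and of Sparc, and Eln's E12.5 circles spread through the gene and beyond it.

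Fn1, the fibronectin gene, spans 67.8 kb at chr1:71585473-71653280 and had 8 regions. The E10.5 lists called 1 each, the E11.5 lists 1, 4 and 3, and the E12.5 lists 0, 3 and 1. The residual difference was 1.71 ± 0.84 (SE) for E11.5 against E10.5 (unadjusted p = 0.0434, adjusted p = 0.486 in limma) and −0.44 ± 0.84 for E12.5 against E10.5 (adjusted p = 0.929). Most of these calls came from the single region chr1:71652648-71653873, 1226 bp across the gene's higher-coordinate end. It was called in every list but E12.5 sample 1. The E10.5 lists gave folds of 4.25, 3.89 and 2.75, the E11.5 lists 5.49, 10.4 and 7.91, and E12.5 samples 2 and 3 gave 3.41 and 4.46. It ranked at the 91.9, 96.1 and 68.1 percentiles of the E10.5 lists, between 61.1 and 97.1 of the E11.5 lists and 97.2 and 99.3 of those E12.5 lists. In E11.5 sample 2 it held the highest −log10 q of any matrix-gene call, 37.4. The other 7 Fn1 regions were each called by 1 list.

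**Figure D4:**
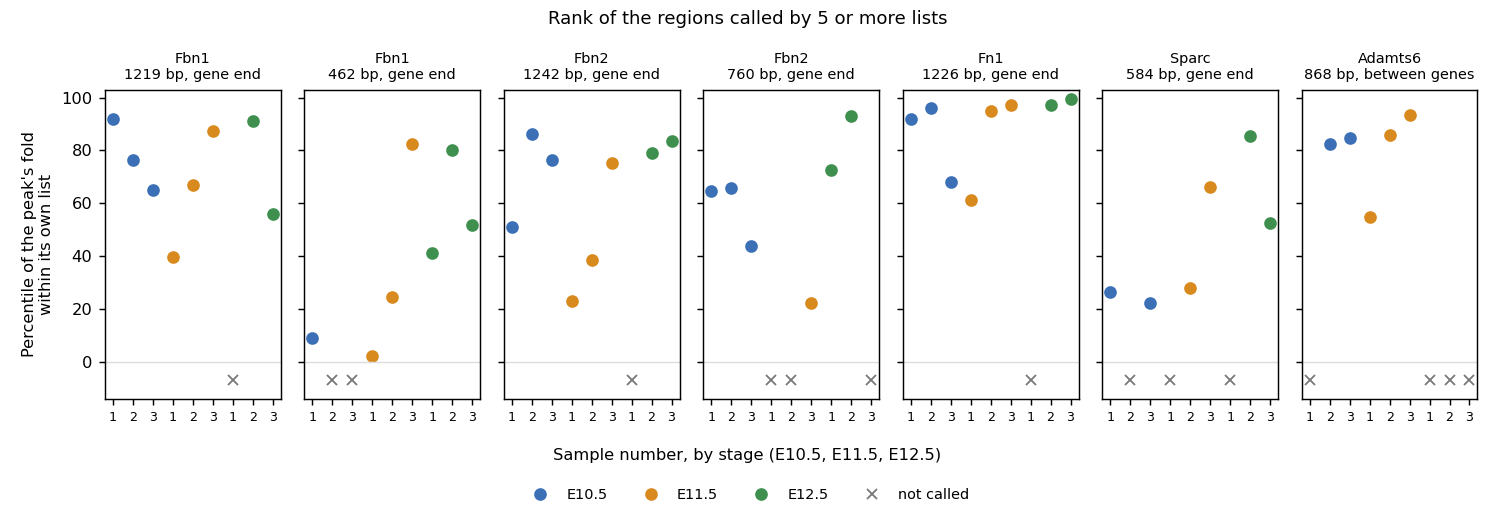
Percentile of fold enrichment within each list for the 7 regions called by 5 or more lists, by stage (colour) and sample number; a cross marks a list without the call. The Fn1 region lies between 61.1 and 99.3, and 5 of the 7 regions lack a call in E12.5 sample 1.

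Tnc, which encodes tenascin C, spans 87.2 kb at chr4:63959785-64047015 and had 12 regions. Of these, the E10.5 lists called 0, 1 and 0, the E11.5 lists 0, 3 and 3, and the E12.5 lists 2, 4 and 3. The residual difference was 0.83 ± 0.83 (SE) for E11.5 and 1.24 ± 0.83 for E12.5 against E10.5, with adjusted p of 0.798 and 0.665 in limma. The region over its start, chr4:64046835-64047331, which contains all of the printed Tnc bases, was called in E11.5 samples 2 and 3 with folds of 4.54 and 3.72 and in no other list. At E12.5 the calls lay outside that region. The nearest to it, chr4:64046146-64046357, 658 bp inside the higher-coordinate end, was called in sample 2 only. Farther inside the gene, chr4:64016781-64017039 was called in samples 2 and 3. Another was chr4:63949345-63949530, 10.3 kb below the gene, in the same lists.

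Postn, which encodes periostin, spans 31.8 kb at chr3:54359267-54391041 and had 6 regions, none of them inside the gene. No E10.5 list called any, while the E11.5 lists called 0, 4 and 1 and the E12.5 lists 1, 2 and 0. The residual difference was 1.61 ± 0.86 (SE) for E11.5 and 0.42 ± 0.86 for E12.5 against E10.5, with adjusted p of 0.547 and 0.935 in limma. The region called in 2 lists at E11.5, chr3:54413353-54413724, lay 22.3 kb beyond the end of the gene and had folds of 4.59 and 4.17 in samples 2 and 3. A region 387 bp before the start, chr3:54358623-54358880, was called in E11.5 sample 2 only.

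Sparc, which encodes the collagen-binding protein SPARC, or osteonectin, spans 25.9 kb at chr11:55394159-55420080 and had 9 regions. The E10.5 lists called 1, 3 and 1, the E11.5 lists 1, 3 and 5, and the E12.5 lists 0, 3 and 1. Expected were 1.33, 1.65 and 1.21, then 0.392, 2.17 and 3.29, then 2.24, 4.10 and 1.62. All 3 E11.5 lists were over their expected number and all 3 E12.5 lists under it, while the counts themselves overlapped. The residual differed by −2.16 between E12.5 and E11.5, the contrast that chose Sparc, which is given without a test. Against E10.5 it differed by 0.79 ± 0.83 (SE) at E11.5 and by −1.37 ± 0.83 at E12.5, with adjusted p of 0.812 and 0.646 in limma. Both of these comparisons use lists that chose Sparc, so the direction of their differences is no separate evidence.

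A single distal region of Sparc was called in all 3 E11.5 lists and in no other. This region, chr11:55428209-55428615, lay 8.13 kb upstream of the start and had folds of 3.62, 6.53 and 4.12 with −log10 q of 1.5, 11.7 and 7.8. At the start, chr11:55419595-55420178, whose upstream part is in capitals in the printed Sparc bases, was called in 6 lists. Its folds were 2.84 and 2.35 in E10.5 samples 1 and 3, 4.14 and 3.44 in E11.5 samples 2 and 3, and 2.88 and 2.85 in E12.5 samples 2 and 3. The start was thus called in 2 of 3 lists at every stage. Below the gene, chr11:55386465-55386741 was called in E11.5 samples 2 and 3. The genes whose residuals were most like those of Sparc over the 9 lists were Lyst (correlation 0.949), Dpysl3 (0.920) and Hilpda (0.920).

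Lum and Dcn, the lumican and decorin genes, lie 47.3 kb apart on chromosome 10 and had 1 and 2 regions, too few to test. The Lum region, chr10:97565130-97565697, spanned the gene's lower-coordinate end and was called only in E11.5 sample 2, with a fold of 4.59. The Dcn region chr10:97479199-97479563, at the corresponding end of that gene, was called in the same list alone, with a fold of 5.30 and a −log10 q of 5.94. A second Dcn region, within the gene, was called only in E12.5 sample 2. With 1 list each, none of these calls has a replicate.

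Adamts6 spans 210 kb at chr13:104286518-104496695 and had 9 regions. The E10.5 lists called 0, 1 and 1, the E11.5 lists 2, 7 and 3, and the E12.5 lists 0, 1 and 0. Expected at E11.5 were 0.276, 1.79 and 2.86, so all 3 lists were over their number. Each E11.5 list called more regions than any list of the other stages, with means of 4 ± 2.65 calls (SD, n = 3) against 0.667 ± 0.577 at E10.5 and 0.333 ± 0.577 at E12.5. For E11.5 against E10.5 the residual difference was 3.24 ± 0.87 (SE), the largest of the 8 genes, with an unadjusted p of 0.000299 and an adjusted p of 0.0773 in limma. The adjusted p was 0.00227 without E11.5 sample 3 and between 0.0508 and 0.425 under the other alternatives that could be fitted. The E11.5 lists entered the choice of the gene set, and 7 of the 9 Adamts6 regions were called only at E11.5. The residual differed by −4.43 between E12.5 and E11.5, given without a test, and by −1.19 ± 0.87 between E12.5 and E10.5 (adjusted p = 0.702 in limma).

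Of the 15 Adamts6 calls, 8 had a −log10 q of at least 5, beside 41 of the 153 member calls. Such a call was held by 4 of its 9 regions, beside 21.4% of assigned regions. These q values come from different lists, most of the calls being at E11.5. Within their own lists, 5 of the 15 calls ranked below the 50th percentile of fold enrichment. Of the 128 calls of the 9 genes other than Eln, Adamts6 among them, 57 did. The region chr13:104518042-104518909, 21.3 kb beyond the higher-coordinate end, was called in all 3 E11.5 lists with folds of 5.26, 8.22 and 6.27. It was also called in E10.5 samples 2 and 3, with folds of 3.07 and 3.04, and in no E12.5 list. A pair of regions sat at the lower-coordinate end. The region chr13:104286841-104287246 was called in E11.5 samples 2 and 3 with folds of 7.04 and 6.41. Its neighbour chr13:104287875-104288610 was called in E11.5 samples 1 and 2 with folds of 4.34 and 4.99. Neither was called at any other stage.

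A wider list of 95 matrix genes and matrix receptors placed the members among related genes. Of these, 89 had regions and 70 could be tested. For E11.5 against E10.5, 1 had more calls in limma and 0 had fewer, beside 0.214% and 0.0267% of all tested genes. An unadjusted p under 0.05 was found in 5, beside 9.99%, and 28 lay above 0, beside 42.2%. The median residual difference was −0.27, beside −0.17. For E12.5 against E10.5, 0 passed in either direction in limma, beside 0.0134% with more calls and 0% with fewer. An unadjusted p under 0.05 was found in 8, beside 8.78%, and 39 lay above 0, beside 51.6%. The median was 0.10, beside 0.04. By role at E11.5, differences above 0 were found in 4 of 11 elastic fibre genes, 0 of 2 leucine-rich proteoglycan genes, 6 of 16 matricellular genes, 2 of 3 hyaluronan matrix genes, 5 of 10 basement membrane genes, 3 of 9 receptors and 8 of 19 members of the ADAMTS family.

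The gene that passed was Itga1, which encodes the alpha subunit of a collagen-binding integrin. Of its 10 regions, the E10.5 lists called none, the E11.5 lists 2, 5 and 5, and the E12.5 lists 3, 2 and 2. The E11.5 difference from E10.5 was 3.37 ± 0.84 (SE), adjusted p = 0.0488 in limma. Adjusted p for it ran from 0.0117 to 0.298 over the alternatives, and 11 of them ended the call. Lama2, a laminin chain gene of basement membranes, was called 0, 7 and 5 times in the E11.5 lists and never in the others, with 3.22 ± 0.88 (SE) and an adjusted p of 0.099 in limma. At the low end for E11.5 stood Smoc1 (−1.94) and Adamts2 (−1.91). For E12.5 against E10.5 the extremes were Lama4 (−2.17), Mfap5 (−2.13), Spock1 (1.67) and Fbln5 (1.80), with adjusted p of 0.447 to 0.571 in limma. Bgn, Ogn, Omd, Epyc, Aspn and Ecm2, all leucine-rich proteoglycan genes, had no region assigned to them.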

How the data were processed

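Peaks of 9 ATAC-seq lists (3 stages, 3 samples each, 23 library runs) were used. Per the submitters' processing notes, Bowtie2, deepTools 3.3.1, MACS2 and the mm10 build were used, and per the labels peaks came from paired-end alignments with blacklisted regions removed. Read filters, any shift for the transposase offset and the MACS2 threshold are not given in the sources used. The smallest −log10 q was 1.30 to 1.32 per list. The deposited lists give each peak's fold enrichment (a ratio) and the −log10 p and −log10 q of the authors' caller, which served only as properties of a peak in its own list. They hold no counts, so no depth-based interval is given.

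Peaks on the 19 autosomes and chromosome X were merged at an overlap of at least 1 bp and assigned to the nearest of 21631 protein-coding RefSeq genes (GRCm38.p6, the patched release of the mm10 assembly; 100 kb limit). That table gives no strand or exons, so exonic, intronic and untranslated positions were not separated; the strand of Fbn1, Postn, Tnc and Sparc came from the promoter table, which matched 4 of the 10 genes. Expected calls came from a logit model with a term for each list and each region (a Rasch model), given the number of lists that called the region. Residuals of genes with at least 5 regions called by 1 to 8 lists were tested with limma 3.58.1 in R 4.3.3, all 9 lists together and stage as the only factor. Its prior degrees of freedom were 98.2 against 6 residual, so a gene's own spread weighs little. The fit was tested on simulated data. Python 3.11.15, NumPy 2.4.6, pandas 2.3.3 and Matplotlib 3.10.9 were used.

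The members, lists and tests were chosen with earlier results of these data known. All 10 members are named. Regions given in full are those called by at least 3 lists, up to 5 per gene, and every gained or lost region; regions called by 1 or 2 lists that the text singles out were chosen after their values were seen. From the wider list, genes that passed and the 2 highest and 2 lowest differences per comparison are named, and for Eln and Sparc the 3 genes of highest Pearson correlation of residuals.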

Additional observations from a re-analysis of the deposited data

How the results depend on the processing

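The limits are the absence of read counts and the unequal lists, and 72.5% of the regions rest on 1 list. A −log10 q of at least 5 left 18 member regions and lists of equal length (5682 peaks) left 16. Gained regions for E11.5 against E10.5 then fell to 0 under both settings. Lost regions for E12.5 against E11.5 came to 1 under both, the one at Adamts6, and also to 1 with a distance limit of 20 kb. Eln and Adamts6 had too few regions to test under both stricter settings and with regions called by 2 to 8 lists. In the 50 bp overlap and midpoint settings all these counts stayed within 1.5 times.

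Leaving out 1 list at a time gave 1 to 6 gained and 0 to 1 lost regions for E11.5 against E10.5. It gave 0 to 4 gained and 0 to 1 lost for E12.5 against E10.5, and 0 to 3 gained and 2 to 7 lost for E12.5 against E11.5. Members passing in limma for E11.5 against E10.5 numbered 0 to 1, the 1 being Adamts6 without E11.5 replicate 3, with a residual difference of 4.60. The Eln difference for E11.5 against E10.5 changed sign, to −0.451 at 20 kb and over −0.214 to 0.392 with 1 list left out. That of Fbn2 ran from −1.59 to 0.0685 and that of Fn1 for E12.5 against E10.5 from −0.878 to 0.125. The cause of these changes was not tested.

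Over all genes, the 16 called higher for E11.5 against E10.5 became 0 to 53 with 1 list left out, 8 at 20 kb, 6 with regions called by 2 to 8 lists, and 0 under both stricter settings. The 2 called lower became 0 or 1 with 1 list left out, 0 under both stricter settings, 1 at 20 kb or by midpoint, and 5 with regions called by 2 to 8 lists. For E12.5 against E10.5, 1 called higher and 0 lower became 9 and 0 under the stricter q, 3 and 0 with lists of equal length or a 50 bp overlap, 0 and 0 at 20 kb, and 3 and 5 with regions called by 2 to 8 lists. With 1 list left out they ran from 0 to 7 and from 0 to 1. Residuals of same-numbered samples correlated between −0.0991 and 0.0163, and those of differently numbered ones between −0.127 and 0.130. These values show no pairing by sample number. They cannot exclude one, because residuals rest mostly on regions called by 1 list. With a replicate block 19 genes were called higher and 3 lower for E11.5 against E10.5 (20 and 3 with genes of 3 or more regions), and with the block 0 members passed in either comparison. Adjusted p in limma was then 0.064 for Adamts6 at E11.5 and 0.271 for Eln at E12.5.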
